A study of Mus musculus with 32 samples.

Results

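Transcripts of 10 integrin chains used in adhesion and homing, Itga4, Itga5, Itga6, Itgal, Itgam, Itgav, Itgb1, Itgb2, Itgb3 and Itgb7, were followed through B cell differentiation in mice with and without activated PI3K-delta signalling. They were picked by symbol from a count table of 53465 genes, where they fill 11 rows because Itgam has a second identifier. Itgb7 and Itga4 were high in naive B cells and low in the germinal centre, Itgb3 was highest in the dark zone, and Itgal was highest in plasma cells. No integrin passed the test between aPIK3CD and WT cells in any population.

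The study asks what activated PIK3CD signalling does to naive B cells, germinal centre B cells and plasma cells. Spleens came from 12-week-old C57BL/6 mice, 14 days after an intraperitoneal injection of NP-CGG in alum, a hapten-carrier antigen that starts a T cell dependent germinal centre response. The 8 groups were the naive, dark zone, light zone and plasma cells of aPIK3CD mice, each set against the same population of WT mice, with 4 libraries per group and 32 in all. For each library 500 cells were sorted into SMART-Seq v4 reagents, a kit for low RNA input. All animals, WT included, are labelled as carrying a cre allele. The labels do not say that replicates came from separate mice, so p-values measure the spread between these libraries only.

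Integrins are cell surface receptors built from an alpha and a beta chain, and neither chain reaches the surface without a partner. On B cells, Itga4 pairs with Itgb1 to form VLA-4, which binds VCAM-1 and fibronectin, or with Itgb7 to form LPAM-1, which binds MAdCAM-1 on gut vessels. Itgal pairs with Itgb2 to form LFA-1, the receptor for ICAM molecules. LFA-1 and VLA-4 hold B cells to follicular dendritic cells and to helper T cells, and they keep marginal zone B cells in place, while plasma cells use VLA-4 and LFA-1 for retention in bone marrow and spleen.

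Total counts were 473149 to 2820830 in 31 libraries. The exception was WT dark zone replicate 3 with 25797, where 1 count is worth 34.1 CPM and the integrins had 0 to 6 counts each. Dark zone WT levels are therefore given for the other 3 libraries, while the fits kept all 4. Levels are CPM on TMM-scaled library sizes, and errors are SD between libraries or the SE of the fit. A log2 ratio is the fitted log2 fold change of the group named first over the other. The marker sums followed the labels for naive, dark zone and plasma cells. The naive list summed to 3770 to 4680 CPM in naive libraries and to at most 451 CPM in plasma cells, and the plasma cell list to 10700 to 14400 CPM in plasma cells and at most 1400 CPM elsewhere. The dark zone list reached 1600 to 1780 CPM in dark zone and 1170 to 1380 CPM in light zone libraries. The light zone list did not single out its population, with 1200 to 1690 CPM in light zone libraries and 1430 to 1650 CPM in plasma cells. Pik3cd itself passed the test in no population (edgeR adjusted p between 0.0733 and 1.0). The 4 libraries titled aPIK3CD replicate 1 carry WT in the genotype field. They were grouped by title.

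Itga4 encodes the alpha chain shared by VLA-4 and LPAM-1. It measured 183, 189, 182 and 194 CPM in aPIK3CD naive B cells, against 176, 212, 200 and 211 CPM in WT naive B cells. Dark zone libraries held 46.0, 96.3, 52.5 and 34.8 CPM in aPIK3CD cells, against 66.0, 83.9 and 77.8 CPM in WT cells. Every germinal centre library lay below every naive library. The light zone libraries held 46.1, 66.8, 43.0 and 65.6 CPM in aPIK3CD cells, against 68.6, 74.7, 62.5 and 111 CPM in WT cells. Plasma cells had 259, 189, 245 and 221 CPM in aPIK3CD, against 279, 353, 269 and 278 CPM in WT. The plasma cell range of aPIK3CD overlapped the naive range of the same genotype, and that of WT lay above it.

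Itga4 was lower in both germinal centre zones than in naive B cells. In aPIK3CD mice it fell in the dark zone against naive B cells (log2 ratio -1.71, SE 0.26, edgeR adjusted p = 0.000197) and in the light zone (log2 ratio -1.74, SE 0.17, edgeR adjusted p = 9.53e-06). In WT mice it fell in the dark zone (log2 ratio -1.40, SE 0.21, edgeR adjusted p = 6.97e-05) and in the light zone (log2 ratio -1.34, SE 0.19, edgeR adjusted p = 0.000109). Plasma cells stood about 4-fold above the germinal centre. The fold over the dark zone was 4.01 in aPIK3CD mice (log2 ratio 2.0, SE 0.27, edgeR adjusted p = 1.77e-05) and 4.01 in WT mice (2.0, SE 0.22, edgeR adjusted p = 4.89e-07). Against naive B cells, the plasma cell log2 fold change was 0.31 in aPIK3CD mice (SE 0.12, edgeR adjusted p = 0.0534), and Itga4 rose in WT mice (log2 ratio 0.60, SE 0.16, edgeR adjusted p = 0.00469). The aPIK3CD value passed with DESeq2 size factors (adjusted p = 0.0421), with the DESeq2 Wald test (0.0291), without immunoglobulin and T cell receptor genes (0.0373) and without aPIK3CD plasma cell replicate 2 (0.0243). Without the filter on low counts the WT value was 0.45, with an adjusted p of 0.0528. An opposite-strand gene, Cerkl, overlaps 8.04% of the exonic bases of Itga4. Cerkl had 464 counts in all libraries together, against 6691 for Itga4, and counting by strand is not stated.

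Itgb7, the beta chain of LPAM-1, had the widest range among the integrins. It measured 218, 222, 204 and 266 CPM in aPIK3CD naive B cells, against 172, 305, 192 and 174 CPM in WT naive B cells. Dark zone levels were 13.8, 17.1, 11.6 and 30.0 CPM in aPIK3CD cells, against 5.68, 17.7 and 16.9 CPM in WT cells. The germinal centre values were far below all naive values in both genotypes. Light zone cells had 23.1, 16.7, 12.5 and 22.6 CPM in aPIK3CD mice, against 9.98, 55.0, 21.2 and 6.22 CPM in WT mice. Plasma cells had 49.8, 62.9, 110 and 37.5 CPM in aPIK3CD mice, against 74.7, 101, 123 and 78.2 CPM in WT mice. Plasma cells thus lay between naive and germinal centre cells, and the highest group mean was 12.6-fold the lowest in aPIK3CD mice and 15.7-fold in WT mice.

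Against naive B cells, Itgb7 fell in the aPIK3CD dark zone (log2 ratio -3.63, SE 0.26, edgeR adjusted p = 5.24e-07) and in the WT dark zone (log2 ratio -3.86, SE 0.36, edgeR adjusted p = 3.94e-07). In the light zone it fell in aPIK3CD mice (log2 ratio -3.59, SE 0.20, edgeR adjusted p = 1.56e-07) and in WT mice (log2 ratio -3.13, SE 0.45, edgeR adjusted p = 0.000101). The dark and light zones did not differ beyond their spread (edgeR adjusted p = 0.978 in aPIK3CD and 0.68 in WT). Plasma cells exceeded the dark zone in aPIK3CD mice (log2 ratio 1.83, SE 0.39, edgeR adjusted p = 0.00107) and in WT mice (log2 ratio 2.73, SE 0.38, edgeR adjusted p = 7.51e-06). Against naive B cells Itgb7 fell in plasma cells of aPIK3CD mice (log2 ratio -1.80, SE 0.27, edgeR adjusted p = 0.00013) and in WT mice (log2 ratio -1.11, SE 0.24, edgeR adjusted p = 0.00141). NK cell markers summed to 200 to 430 CPM in naive libraries and to 0.648 to 98.9 CPM in the dark zone. The part of such cells in the naive levels was not tested.

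Itgb1, the other beta partner of Itga4 and the common beta chain of the VLA receptors, moved the other way. It measured 83.4, 80.8, 30.2 and 64.3 CPM in aPIK3CD naive B cells, against 73.1, 113, 95.2 and 70.7 CPM in WT naive B cells. Dark zone libraries had 154, 126, 113 and 175 CPM in aPIK3CD cells, against 114, 124 and 130 CPM in WT cells. All these dark zone values exceeded the naive values of their genotype. Light zone cells had 195, 129, 198 and 148 CPM in aPIK3CD mice, against 124, 176, 194 and 216 CPM in WT mice. Plasma cells had 178, 174, 168 and 182 CPM in aPIK3CD mice, against 131, 80.5, 152 and 127 CPM in WT mice. The aPIK3CD plasma cells were the tightest of these groups, and WT plasma cells overlapped WT naive B cells. Itgb1 rose in the light zone over naive B cells in aPIK3CD mice (log2 ratio 1.38, SE 0.27, edgeR adjusted p = 0.00145) and in WT mice (log2 ratio 1.02, SE 0.21, edgeR adjusted p = 0.00185). In the dark zone it rose in aPIK3CD mice (log2 ratio 1.15, SE 0.28, edgeR adjusted p = 0.00509), with a log2 fold change of 0.51 in WT mice (SE 0.21, edgeR adjusted p = 0.0642). In plasma cells it rose in aPIK3CD mice (log2 ratio 1.45, SE 0.27, edgeR adjusted p = 0.000676), with a log2 fold change of 0.52 in WT mice (SE 0.23, edgeR adjusted p = 0.073). Both WT values passed with grouping by the genotype field (adjusted p = 0.00782 in the dark zone and 0.0135 in plasma cells). The WT dark zone value passed without naive replicate 2 (0.64, edgeR adjusted p = 0.0159), and the WT plasma cell value without naive replicate 2 (0.68, edgeR adjusted p = 0.0196) or plasma cell replicate 2 (0.61, edgeR adjusted p = 0.0471). Passing in aPIK3CD and not in WT mice is no test between them: the genotype effect on Itgb1 did not differ among the 4 populations past the threshold (edgeR adjusted p = 0.678).

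**Figure D1:**
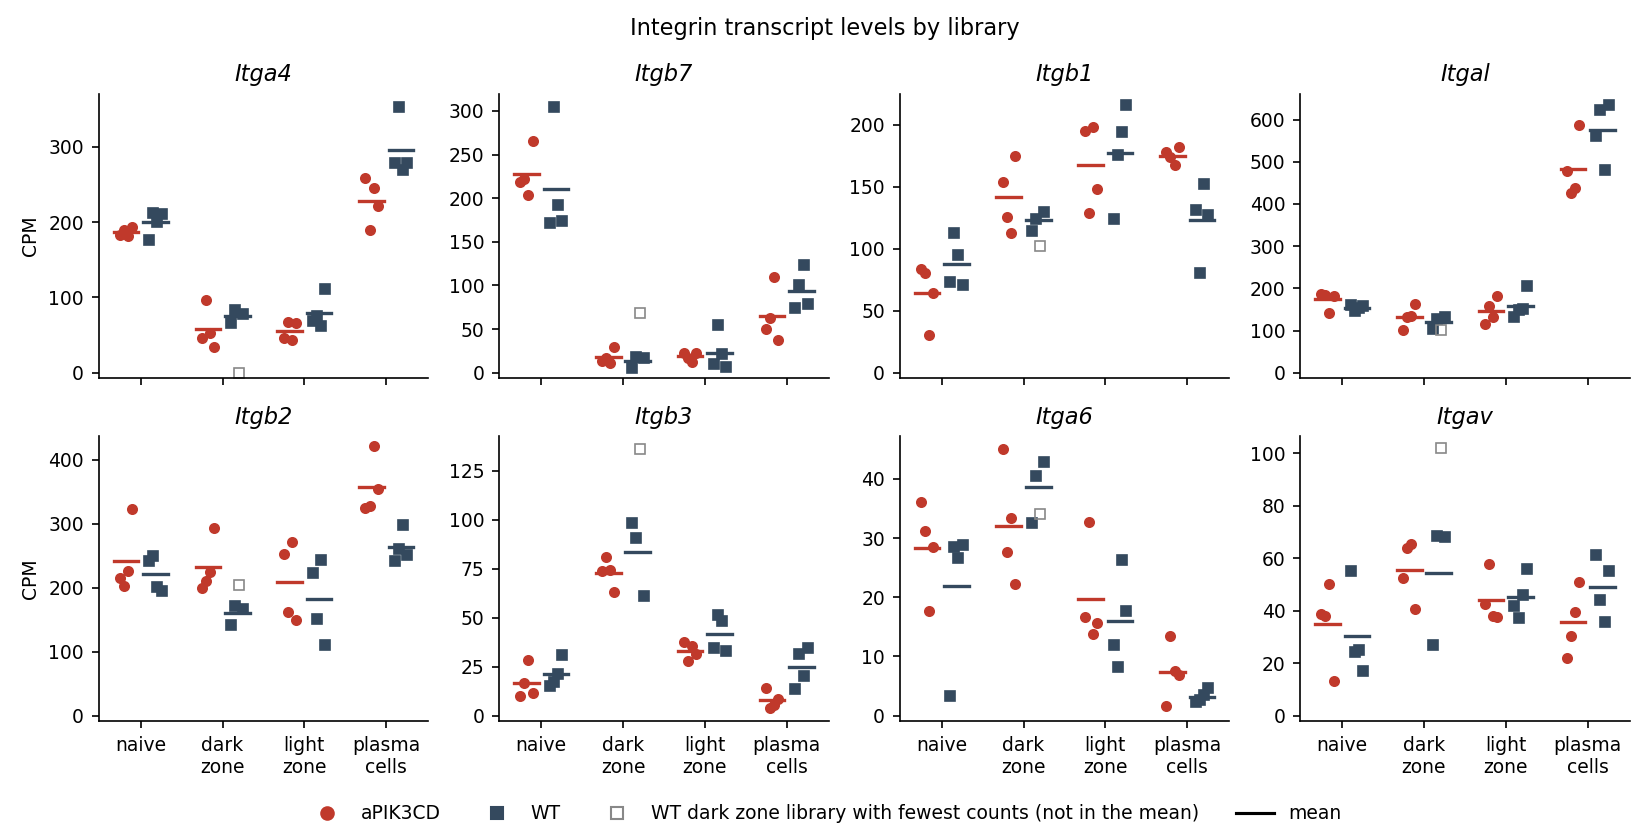
CPM of 8 integrins in each library of naive, dark zone, light zone and plasma cells, aPIK3CD as red circles left of WT as dark squares, with the group mean as a line. Itgb7 and Itga4 dip in the dark and light zones, Itgb3 peaks in the dark zone at 60.9 to 98.6 CPM in the deeper libraries, and Itgal stands at 425 to 635 CPM in plasma cells. The open square is the WT dark zone library with 25797 counts, left out of the mean.

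Per kilobase of transcript, the balance of both beta chains turned over between naive and germinal centre B cells. Itgb7 made up 83.6 ± 5.52% of the summed Itgb7 and Itgb1 level per kilobase in aPIK3CD naive B cells (SD, n = 4) and 77.0 ± 2.13% in WT naive B cells (SD, n = 4). In the dark zone its share was 14.9 ± 3.72% in aPIK3CD cells (SD, n = 4) and 13.0 ± 5.61% in WT cells (SD, n = 3). Light zone shares were 14.0 ± 4.13% in aPIK3CD cells and 14.6 ± 11.5% in WT cells (SD, n = 4 each). No germinal centre library of the deeper 31 came near the naive range. In plasma cells the share was 28.5, 34.0, 48.2 and 22.6% in aPIK3CD mice, against 44.7, 64.1, 53.5 and 46.8% in WT mice. The plasma cell genotypes overlapped, aPIK3CD replicate 3 lying inside the WT range, and this difference was given no test. These shares are of transcripts and say nothing of surface heterodimers. Of the summed Itga4 and Itgal level per kilobase, the alpha chains of the VLA-4 and LFA-1 receptors, Itga4 made up 36.5 ± 2.71% in aPIK3CD and 40.8 ± 2.85% in WT naive B cells, and 20.2 ± 2.90% in aPIK3CD and 21.5 ± 2.02% in WT plasma cells (SD, n = 4 each). In the dark zone its share was 18.7 ± 7.21% in aPIK3CD (SD, n = 4) and 25.1 ± 1.14% in WT cells (SD, n = 3). Light zone shares were 16.8 ± 1.58% in aPIK3CD and 20.8 ± 1.91% in WT cells (SD, n = 4 each). The low Itga4 share was thus not particular to plasma cells.

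**Figure D2:**
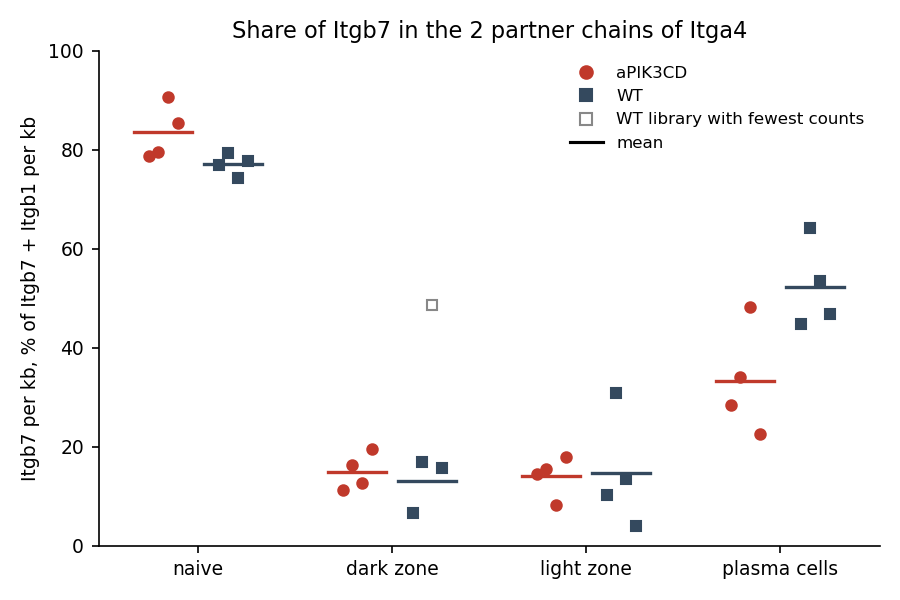
Itgb7 as a percentage of Itgb7 plus Itgb1, both per kilobase of transcript, in each library by population, aPIK3CD as red circles left of WT as dark squares, with the mean as a line. The naive libraries sit at 74.2 to 90.6%, the deeper germinal centre libraries at 3.94 to 30.8% and plasma cells at 22.6 to 64.1%. The open square is the WT dark zone library with 25797 counts.

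The 250 bases upstream of the RefSeq start of Itga4, Itgb7 and Itgb1 are shown because Itga4 and Itgb7 fell together in the germinal centre while Itgb1 did not. They are taken from RefSeq on GRCm38.p6, written 5′ to 3′ on the strand of the gene, for Itga4 from chr2:79255176-79255425 (+), for Itgb7 from chr15:102231936-102232185 (−) and for Itgb1 from chr8:128685404-128685653 (+). Capitals mark CACCC or its reverse complement GGGTG, the core letters bound by Kruppel-like factors, of which Klf2 is known to promote Itgb7 expression in mouse lymphocytes.
Itga4: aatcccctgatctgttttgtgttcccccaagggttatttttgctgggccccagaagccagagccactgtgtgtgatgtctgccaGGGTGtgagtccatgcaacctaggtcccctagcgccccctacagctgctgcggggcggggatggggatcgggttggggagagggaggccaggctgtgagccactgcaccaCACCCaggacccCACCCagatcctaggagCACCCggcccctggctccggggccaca
Itgb7: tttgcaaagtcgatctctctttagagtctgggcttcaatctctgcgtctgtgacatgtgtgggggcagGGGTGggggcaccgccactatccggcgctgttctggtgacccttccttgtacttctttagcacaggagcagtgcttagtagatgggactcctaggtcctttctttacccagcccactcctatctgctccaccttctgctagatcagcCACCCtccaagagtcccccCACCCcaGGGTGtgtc
Itgb1: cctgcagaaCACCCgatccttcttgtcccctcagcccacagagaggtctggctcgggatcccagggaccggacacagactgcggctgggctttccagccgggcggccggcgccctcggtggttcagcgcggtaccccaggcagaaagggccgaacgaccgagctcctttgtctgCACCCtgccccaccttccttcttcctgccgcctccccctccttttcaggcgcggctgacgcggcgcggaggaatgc
These letters occurred 4 times upstream of Itga4, 4 times upstream of Itgb7 and 2 times upstream of Itgb1. Upstream of Itgam, close to undetected here, they occurred 3 times, of Itgav 1 time and of Itga5 0 times. How often other windows hold as many matches was not counted. They are common: 52.0% of 32851 RefSeq upstream windows of the same length hold at least 1 match on either strand. The forkhead letters TGTTTAC (3.17% of windows) and the ETS letters GGAAGT (19.7% of windows), searched on both strands, were not found upstream of Itga4, Itgb7 or Itgb1. A match is a description of the letters and not evidence of binding. Of the 10 integrins, 6 were matched in the RefSeq promoter table used here.

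Itgal, the alpha chain of LFA-1, was present in every population and highest in plasma cells. It measured 187, 184, 142 and 182 CPM in aPIK3CD naive B cells, against 160, 146, 154 and 157 CPM in WT naive B cells. Dark zone values were 101, 133, 134 and 162 CPM in aPIK3CD cells, against 103, 127 and 132 CPM in WT cells. Light zone values were 116, 157, 131 and 182 CPM in aPIK3CD cells, against 131, 148, 151 and 206 CPM in WT cells. These 3 populations overlapped one another in aPIK3CD mice. In WT mice the dark zone libraries lay below all naive libraries, and the light zone overlapped both. Plasma cells held 478, 425, 438 and 587 CPM in aPIK3CD mice, against 562, 623, 480 and 635 CPM in WT mice, above every other library. Against naive B cells Itgal rose 2.8-fold in aPIK3CD plasma cells (log2 ratio 1.49, SE 0.13, edgeR adjusted p = 1.65e-06) and 3.85-fold in WT plasma cells (1.95, SE 0.14, edgeR adjusted p = 5.12e-08). Against the dark zone it rose 3.62-fold in aPIK3CD plasma cells (1.86, SE 0.17, edgeR adjusted p = 3.52e-07) and 4.81-fold in WT plasma cells (2.27, SE 0.18, edgeR adjusted p = 6.44e-09). Among naive, dark zone and light zone cells no contrast passed for Itgal. The dark zone against naive B cells passed in aPIK3CD mice without dark zone replicate 4 (log2 ratio -0.50, edgeR adjusted p = 0.0341) and in a single fit of all groups (-0.39, adjusted p = 0.0388). It passed in WT mice with DESeq2 size factors (-0.48, adjusted p = 0.0288) and with the genotype field (-0.40, adjusted p = 0.0375).

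Itgb2, the common beta chain of the leukocyte integrins and the partner of Itgal, varied less. It measured 215, 202, 226 and 323 CPM in aPIK3CD naive B cells, against 241, 250, 201 and 194 CPM in WT naive B cells. Dark zone cells held 200, 211, 224 and 294 CPM in aPIK3CD cells, against 141, 172 and 166 CPM in WT cells. These genotypes did not overlap in the deeper dark zone libraries, as for 8.2% of all genes tested. The aPIK3CD over WT log2 fold change of 0.53 (SE 0.16) had an edgeR adjusted p of 0.398. The fit included the WT library with 25797 counts, whose 204 CPM rest on 6 counts. Light zone values were 253, 162, 271 and 150 CPM in aPIK3CD cells, against 223, 151, 244 and 110 CPM in WT cells. Plasma cells held 324, 328, 421 and 354 CPM in aPIK3CD mice, against 242, 260, 298 and 251 CPM in WT mice. The aPIK3CD plasma cells lay above all other aPIK3CD libraries. There Itgb2 rose over naive B cells (log2 ratio 0.58, SE 0.16, edgeR adjusted p = 0.00965), over the dark zone (log2 ratio 0.62, SE 0.16, edgeR adjusted p = 0.00355) and over the light zone (log2 ratio 0.78, SE 0.19, edgeR adjusted p = 0.00237). In WT mice it rose in plasma cells over the dark zone (log2 ratio 0.71, SE 0.17, edgeR adjusted p = 0.00195) and over the light zone (log2 ratio 0.56, SE 0.22, edgeR adjusted p = 0.0401). The log2 fold change over WT naive B cells was 0.29 (SE 0.16, edgeR adjusted p = 0.14), and passed with the genotype field (0.35, adjusted p = 0.0404). The WT dark zone against naive B cells had a log2 fold change of -0.41 (edgeR adjusted p = 0.0637), which passed without the shallow WT library (-0.48, adjusted p = 0.0281), without the filter (0.0492) and with DESeq2 (0.0116 with its size factors, 0.0242 with its Wald test). The WT call over the light zone was lost without light zone replicate 2 or 4, without any WT plasma cell replicate, and without the filter, at adjusted p between 0.054 and 0.126.

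Cells other than B cells also carry LFA-1, and some of their markers were higher in plasma cell libraries. The 12 myeloid markers summed to 230 to 662 CPM in aPIK3CD and 28.6 to 431 CPM in WT plasma cells, against 66.6 to 378 CPM in aPIK3CD and 48.0 to 285 CPM in WT light zone libraries and at most 70.2 CPM in naive and dark zone libraries. Lyz2 and Cd68 led this sum, and Mpo, Elane, Retnlg, S100a8 and S100a9 had 0 counts in plasma cells. T cell markers summed to 168 to 235 CPM in aPIK3CD and 152 to 446 CPM in WT plasma cells, against 84.2 to 136 CPM in aPIK3CD and 30.1 to 216 CPM in WT light zone libraries and at most 62.8 CPM in naive libraries. NK cell markers were instead highest in naive libraries, at 200 to 422 CPM in aPIK3CD and 231 to 430 CPM in WT mice. They summed to 42.1 to 259 CPM in aPIK3CD and 39.1 to 115 CPM in WT plasma cells. The part of myeloid, T and NK cells in the Itgal and Itgb2 levels was not tested. Less RNA per cell and fewer cells of a type cannot be told apart in these bulk libraries.

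Itgam, the alpha chain of the myeloid receptor Mac-1, was close to undetected. It had 82 counts in all 32 libraries together, at most 6.22 CPM in aPIK3CD and 7.10 CPM in WT libraries. No comparison tested it, since it did not pass the filter on low counts. A gene model under a second identifier, with 1 count, shares 68.67% of the exonic bases of Itgam, so its counts are uncertain.

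Itgb3, the beta chain that pairs with Itgav to form the vitronectin receptor, marked the dark zone. It measured 9.75, 16.7, 28.3 and 11.4 CPM in aPIK3CD naive B cells, against 15.0, 17.1, 21.4 and 30.9 CPM in WT naive B cells. Dark zone cells reached 73.7, 80.8, 74.3 and 62.9 CPM in aPIK3CD cells, against 98.6, 90.6 and 60.9 CPM in WT cells. Light zone cells had 37.5, 27.8, 35.5 and 31.4 CPM in aPIK3CD mice, against 34.3, 51.3, 48.4 and 33.2 CPM in WT mice. In both genotypes all dark zone values lay above all light zone values. Plasma cells had 14.0, 3.81, 5.62 and 8.51 CPM in aPIK3CD mice, against 13.6, 31.2, 20.4 and 34.5 CPM in WT mice. Plasma and naive cells overlapped in both genotypes, and plasma cells against naive B cells had a log2 fold change of -1.0 in aPIK3CD mice (SE 0.55, edgeR adjusted p = 0.147) and 0.28 in WT mice (SE 0.43, edgeR adjusted p = 0.613). The aPIK3CD value passed in a single fit of all groups (adjusted p = 0.039).

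Itgb3 rose in the dark zone over naive B cells 4.46-fold in aPIK3CD mice (log2 ratio 2.16, SE 0.34, edgeR adjusted p = 0.000258) and 4.22-fold in WT mice (2.08, SE 0.32, edgeR adjusted p = 8.54e-05). It was the only integrin that passed between the germinal centre zones, where 6.04% of all genes passed in aPIK3CD mice and 2.55% in WT mice. In WT mice the light over dark zone log2 fold change of Itga6 was -1.24 (SE 0.38, edgeR adjusted p = 0.0897). It passed with the genotype field (-1.3, edgeR adjusted p = 0.0249). That of Itgb1 was 0.55 (SE 0.18, edgeR adjusted p = 0.118) and passed without WT light zone replicate 1 (0.68, edgeR adjusted p = 0.0478). In the light zone Itgb3 fell against the dark zone in aPIK3CD mice (log2 ratio -1.14, SE 0.21, edgeR adjusted p = 0.00373). In WT mice it fell (log2 ratio -1.01, SE 0.26, edgeR adjusted p = 0.0404). The WT call was lost with DESeq2 (adjusted p = 0.1), in a single fit of all groups (0.0834), and without dark zone replicate 1 or 2 or light zone replicate 1, 2 or 3 (0.0586 to 0.176). Over naive B cells the light zone log2 fold change was 1.01 in aPIK3CD mice (SE 0.37, edgeR adjusted p = 0.0463) and 1.0 in WT mice (SE 0.33, edgeR adjusted p = 0.0256). Both of these calls were lost without the filter (adjusted p = 0.0929 in aPIK3CD and 0.0594 in WT). The aPIK3CD call was also lost with grouping by the genotype field (0.76, adjusted p = 0.188) and in 7 of 8 fits that left out 1 library (0.0597 to 0.103), and the WT call without naive replicate 1 or light zone replicate 2 or 3 (0.0522 to 0.0908). In plasma cells Itgb3 fell against the dark zone in aPIK3CD mice (log2 ratio -3.14, SE 0.33, edgeR adjusted p = 1.94e-06) and in WT mice (log2 ratio -1.78, SE 0.33, edgeR adjusted p = 0.000166). Itgb3 also is the beta chain of the platelet fibrinogen receptor. Platelet markers summed to at most 29.8 CPM in any deeper library, and Itga2b, the platelet alpha partner, measured 2.12 ± 3.79 CPM in aPIK3CD (SD, n = 4) and 2.63 ± 2.86 CPM in WT dark zone cells (SD, n = 3).

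Itgav, the alpha partner of Itgb3 and of several other beta chains, passed in none of the 16 comparisons. It measured 38.6, 38.1, 50 and 13.1 CPM in aPIK3CD naive B cells, against 55.2, 24.4, 24.9 and 16.9 CPM in WT naive B cells. Dark zone cells had 52.4, 63.7, 65.4 and 40.7 CPM in aPIK3CD cells, against 27.0, 68.5 and 68.1 CPM in WT cells. The ranges overlapped in each of these contrasts, and the log2 fold change over naive B cells was 0.68 in aPIK3CD mice (SE 0.36, edgeR adjusted p = 0.143) and 0.96 in WT mice (SE 0.42, edgeR adjusted p = 0.0783). The WT value passed without naive replicate 1 (1.38, adjusted p = 0.0104) and without dark zone replicate 1 (1.29, adjusted p = 0.0269), in a single fit of all groups (0.91, adjusted p = 0.0443) and with the genotype field (0.89, adjusted p = 0.0457). Without WT naive replicate 1 the light zone and plasma cell values against naive B cells passed too (1.03, adjusted p = 0.0185, and 1.18, adjusted p = 0.0122). Light zone values ran from 37.7 to 57.8 CPM in aPIK3CD cells and from 37.3 to 56.0 CPM in WT cells. In aPIK3CD mice, plasma cells against the dark zone passed without dark zone replicate 4 (-0.78, adjusted p = 0.0367) or plasma cell replicate 4 (-0.88, adjusted p = 0.0278). Plasma cell values ran from 21.8 to 51.1 CPM in aPIK3CD mice and from 35.8 to 61.1 CPM in WT mice. The highest group mean was 1.59-fold the lowest in aPIK3CD mice and 1.8-fold in WT mice, the narrowest span of any integrin at these levels except Itgb2 in WT mice.

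Itga6, the alpha chain of laminin receptors, was low throughout and lowest in plasma cells. It measured 36.1, 31.1, 17.6 and 28.5 CPM in aPIK3CD naive B cells, against 3.39, 28.5, 26.7 and 28.9 CPM in WT naive B cells. Dark zone cells measured 45.0, 27.7, 33.4 and 22.2 CPM in aPIK3CD cells, against 32.6, 40.5 and 42.8 CPM in WT cells. The order of the populations, from dark zone through naive and light zone to plasma cells, was the same in both genotypes. Neighbours in it did not pass except as given here. In WT mice the dark zone libraries lay above all naive libraries, with a log2 fold change of 0.84 (SE 0.50, edgeR adjusted p = 0.191). Light zone cells had 16.6, 32.7, 13.7 and 15.7 CPM in aPIK3CD mice, against 11.9, 8.23, 26.2 and 17.6 CPM in WT mice. Plasma cells had 1.56, 13.4, 7.49 and 6.81 CPM in aPIK3CD mice, against 2.26, 2.60, 3.41 and 4.6 CPM in WT mice. Against the dark zone, Itga6 fell in plasma cells of aPIK3CD mice (log2 ratio -2.17, SE 0.48, edgeR adjusted p = 0.00143) and in WT mice (log2 ratio -3.50, SE 0.48, edgeR adjusted p = 6.3e-06). In aPIK3CD plasma cells it also fell against naive B cells (log2 ratio -1.96, SE 0.52, edgeR adjusted p = 0.0073) and against the light zone (log2 ratio -1.45, SE 0.53, edgeR adjusted p = 0.0304). The light zone call was lost without light zone replicate 2 or plasma cell replicate 1, 3 or 4, and with the genotype field (adjusted p between 0.0614 and 0.099). These 2 contrasts were not tested in WT mice, where Itga6 did not pass the filter. Without the filter their log2 fold changes in WT mice were -2.85 (edgeR adjusted p = 0.000804) and -2.33 (edgeR adjusted p = 0.00633).

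Itga5, the alpha chain of the fibronectin receptor VLA-5, had 14 counts in all 32 libraries together and did not pass the filter in any comparison. Of these, plasma cells had 1 count in aPIK3CD mice, in replicate 2, and 2, 3, 3 and 1 counts in WT mice. The WT plasma cell level was 2.30 to 7.79 CPM, and 0 counts were found in all 8 dark zone libraries. Without the filter, the fitted log2 fold change of WT plasma cells was 4.65 over naive B cells (edgeR adjusted p = 0.0208), 4.93 over the dark zone (edgeR adjusted p = 0.00399) and 5.27 over the light zone (edgeR adjusted p = 0.00326). At so few counts these values depend on the prior count of the fit. The plasma cell difference between the genotypes, also without the filter, had an edgeR adjusted p of 0.301.

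Against naive B cells of the same genotype, 4 of 8 integrins tested passed in the aPIK3CD dark zone and 3 of 8 in the WT dark zone, where 43.6% and 41.4% of all genes passed. In the light zone 4 of 8 passed in aPIK3CD mice and 4 of 8 in WT mice, beside 42.6% and 40.0% of all genes. In plasma cells 5 of 8 passed in aPIK3CD mice and 3 of 7 in WT mice, beside 52.8% and 49.6% of all genes. These shares are near those of all genes. The median log2 fold change of the integrins tested in plasma cells against naive B cells was 0.18 in aPIK3CD mice and 0.52 in WT mice, while that of all genes tested was -0.08 in aPIK3CD mice and -0.09 in WT mice. Against the dark zone, 6 of 8 integrins passed in aPIK3CD plasma cells and 6 of 8 in WT plasma cells, beside 61.6% and 55.1% of all genes. Against the light zone, 6 of 8 passed in aPIK3CD plasma cells and 4 of 7 in WT plasma cells, beside 61.2% and 56.4% of all genes. These comparisons share libraries with one another.

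**Figure D3:**
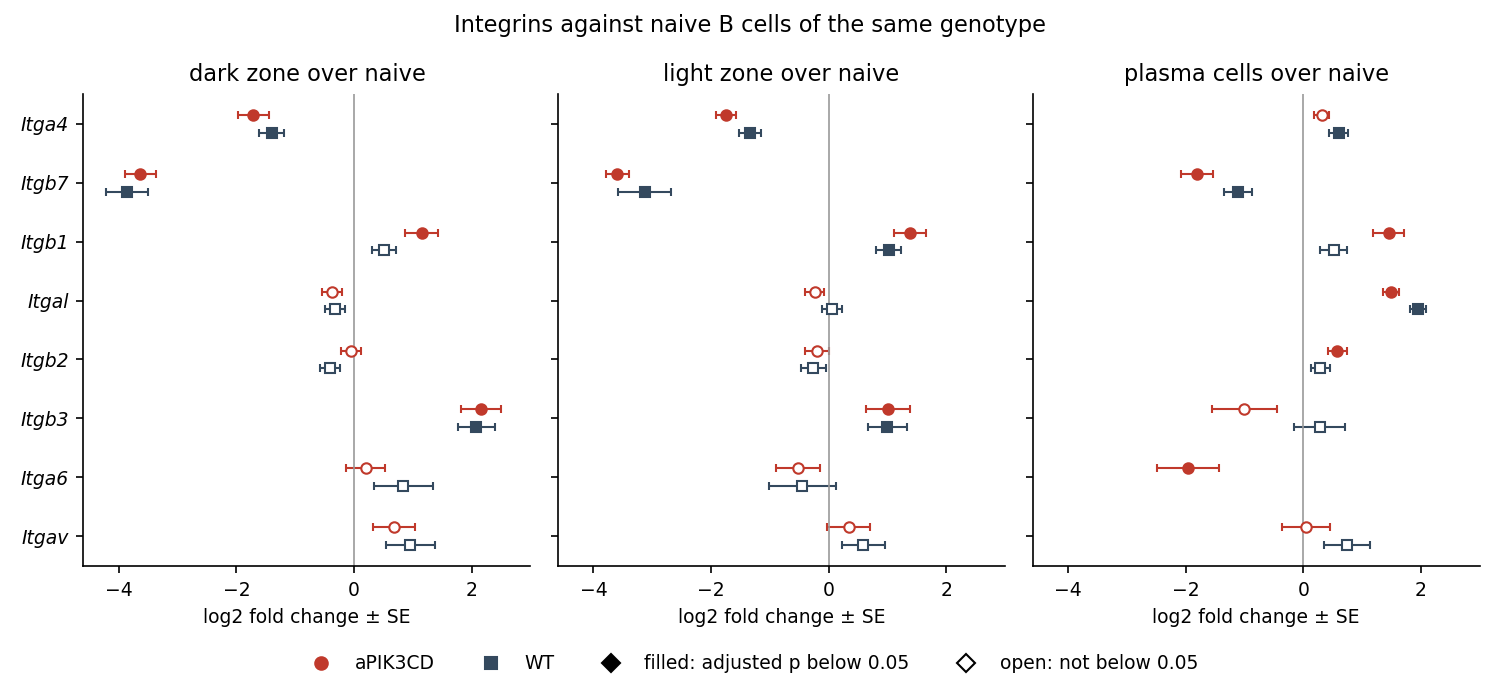
Log2 fold change ± SE of each integrin in dark zone, light zone and plasma cells over naive B cells of the same genotype, aPIK3CD as red circles above WT as dark squares. Filled symbols have an edgeR adjusted p below 0.05. Itgb7 stands at -3.13 to -3.86 in the germinal centre, Itgb3 at 2.16 in aPIK3CD and 2.08 in WT dark zone cells, and Itgal at 1.49 in aPIK3CD and 1.95 in WT plasma cells. WT Itga6 in plasma cells was not tested.

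Between the genotypes no integrin passed in any population. In plasma cells 0 of 6 integrins tested passed, where 3.2% of all genes did. Those 249 genes became 2 of 8146 with grouping by the genotype field, 77 with the replicate block, and 15 to 243 in the fits that left out 1 library. The number rose to 492 with the DESeq2 Wald test and to 694 of 18186 without the filter. It was 625 without immunoglobulin and T cell receptor genes. In the dark zone 0 of 8 passed, beside 0.021% of all genes, and in naive and light zone cells 0 of 8 passed in each, beside 0.0% of all genes in each. At an unadjusted p below 0.05 there were 3 integrins in plasma cells, 1 in the dark zone, 1 in the light zone and 0 in naive B cells. Among all genes tested, 23.3% were below that p in plasma cells, 7.5% in the dark zone, 6.63% in the light zone and 3.06% in naive B cells. DESeq2 also passed 0 integrins in each of these 4 comparisons, as did each fit that left out 1 library or used the genotype field for grouping.

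The plasma cell values with the smallest p were those of Itgb2, Itgb1 and Itga4. Itgb2 averaged 357 ± 44.9 CPM in aPIK3CD and 263 ± 24.6 CPM in WT plasma cells (SD, n = 4 each), a log2 fold change of 0.41 (SE 0.14, edgeR adjusted p = 0.112). Itgb1 averaged 175 ± 5.84 CPM in aPIK3CD and 123 ± 30.0 CPM in WT plasma cells (SD, n = 4 each), a log2 fold change of 0.48 (SE 0.17, edgeR adjusted p = 0.116). Itga4 averaged 228 ± 30.6 CPM in aPIK3CD and 295 ± 39.2 CPM in WT plasma cells (SD, n = 4 each), a log2 fold change of -0.40 (SE 0.15, edgeR adjusted p = 0.144). In these 3 of 6 integrins the genotypes did not overlap, beside 14.7% of all genes tested. Over the alternatives the adjusted p ran from 0.0558 to 0.306 for Itgb2, from 0.0804 to 0.415 for Itgb1 and from 0.0749 to 0.445 for Itga4. Myeloid markers were at 230 to 662 CPM in aPIK3CD and 28.6 to 431 CPM in WT plasma cells, and their part in the Itgb2 difference was not tested. The other integrins tested there were Itgb7 (log2 ratio -0.58, edgeR adjusted p = 0.283), Itgav (-0.48, edgeR adjusted p = 0.386) and Itgal (-0.29, edgeR adjusted p = 0.238). Itgb3 did not pass the filter. It was at 3.81 to 14.0 CPM in aPIK3CD and 13.6 to 34.5 CPM in WT plasma cells, and without the filter its log2 fold change was -1.55 (edgeR adjusted p = 0.112).

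In the other populations the smallest p in each was that of Itgb2 in the dark zone, given above, Itga4 in the light zone and Itgb1 in naive B cells. Itga4 averaged 55.4 ± 12.6 CPM in aPIK3CD and 79.2 ± 21.8 CPM in WT light zone cells (SD, n = 4 each), a log2 fold change of -0.51 (SE 0.23, edgeR adjusted p = 0.745). Itgb1 averaged 64.7 ± 24.5 CPM in aPIK3CD and 88.0 ± 20.0 CPM in WT naive B cells (SD, n = 4 each), a log2 fold change of -0.46 (SE 0.30, edgeR adjusted p = 1.0). The difference of the genotype effect among the 4 populations, tested over all 32 libraries, passed for 0 of 8 integrins, beside 0.0256% of all genes.

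**Figure D4:**
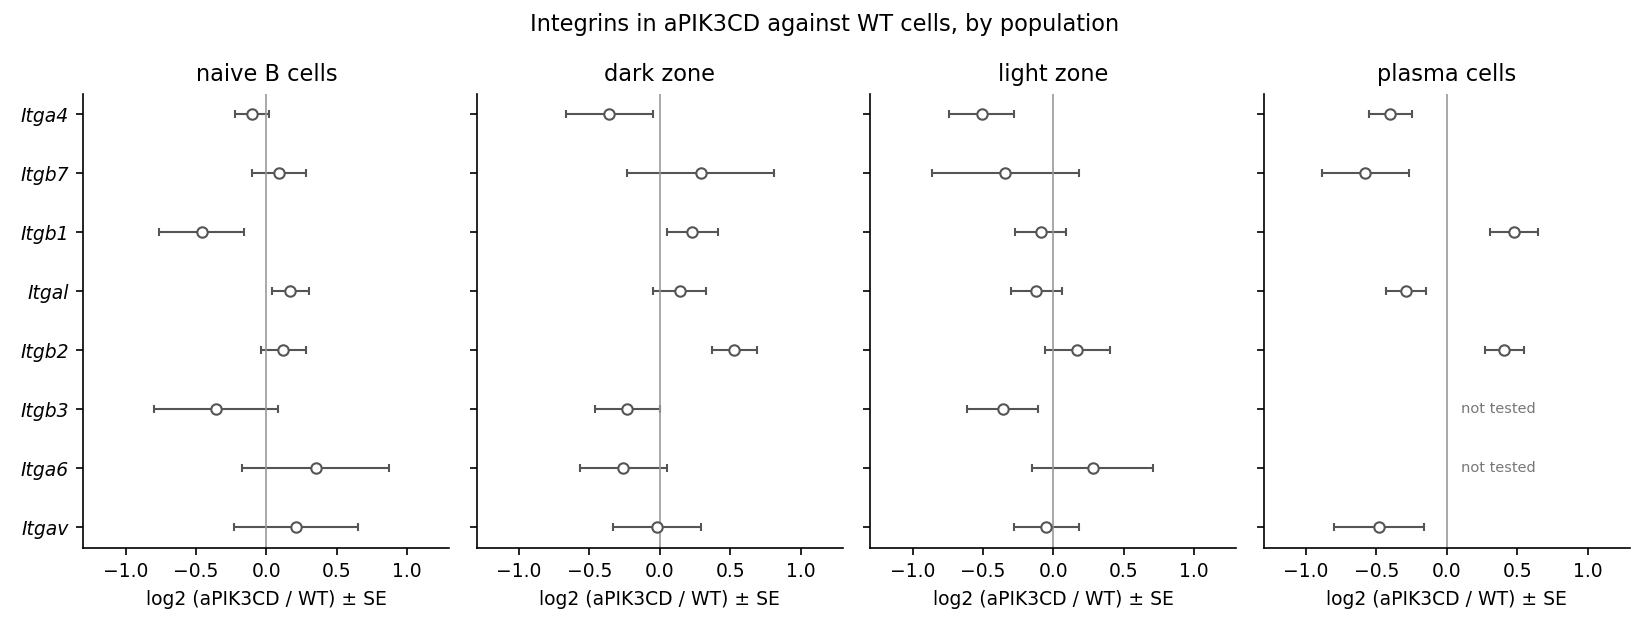
Log2 ratio ± SE of each integrin in aPIK3CD over WT cells in 4 populations. All symbols are open, since no edgeR adjusted p was below 0.05. In plasma cells Itgb2 at 0.41 and Itgb1 at 0.48 lie to the right of 0 and Itga4 at -0.40 to the left, while Itgb3 and Itga6 were not tested there.

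Levels of different integrins can be set side by side per kilobase of the principal transcript. On this scale of CPM per kilobase, Itgb7 led in naive B cells, with 84.8 in aPIK3CD and 78.6 in WT, followed closely by Itgb2 with 81.4 in aPIK3CD and 74.7 in WT. In the germinal centre Itgb2 led, with 78.1 in aPIK3CD and 53.8 in WT dark zone cells, followed by Itgb1 with 37.2 in aPIK3CD and 32.1 in WT. Itgb7 was down at 6.76 in aPIK3CD and 4.99 in WT dark zone cells. In plasma cells Itgb2 stood at 120 in aPIK3CD and 88.5 in WT, and Itgal at 92.8 in aPIK3CD and 111 in WT. The leading chain was therefore Itgb2 in aPIK3CD and Itgal in WT plasma cells. No test was made between genes.

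A further 16 integrin genes were looked up as a list. At least 10 CPM on average in some group was reached by 3 of them, and 2 had 0 counts throughout. Itgb5, another beta partner of Itgav, stood out in plasma cells at 30.4 ± 11.7 CPM in aPIK3CD and 24.4 ± 5.63 CPM in WT (SD, n = 4 each). Naive B cells had 0 counts of it in both genotypes. Against a floor of 3 counts over the naive group, plasma cells were at least 110-fold higher in aPIK3CD mice and at least 85.4-fold higher in WT mice, and both contrasts passed (edgeR adjusted p = 2.86e-05 in aPIK3CD and 7.46e-06 in WT). Plasma cells did not differ by genotype beyond their spread (log2 ratio 0.28, SE 0.36, edgeR adjusted p = 0.672). Itgae, the alpha chain that pairs with Itgb7 to bind E-cadherin, reached 11.2 ± 6.97 CPM in aPIK3CD and 8.14 ± 4.2 CPM in WT plasma cells, and Itga1, a collagen receptor chain, 4.81 ± 0.832 CPM in aPIK3CD and 10.6 ± 5.97 CPM in WT plasma cells (SD, n = 4 each).

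Integrins must be switched to a high-affinity state from inside the cell, by talin, kindlins and the small GTPase Rap1. Of 34 genes of integrin activation and signalling, none passed between the genotypes in any population, with 31 tested in naive, 27 in dark zone, 30 in light zone and 25 in plasma cells. The smallest p in plasma cells was that of Rasgrp2, the exchange factor that loads Rap1 (log2 ratio -0.82, edgeR adjusted p = 0.0572). It was followed by Tln1 (-0.53, edgeR adjusted p = 0.062), Fermt3 (0.61, edgeR adjusted p = 0.0702) and Slc3a2 (0.25, edgeR adjusted p = 0.0719). The list was examined in the main fits only, and not under the alternatives. In the dark zone against naive B cells 2 of 31 rose and 11 fell in aPIK3CD mice, and 1 of 29 rose and 10 fell in WT mice. In the light zone 1 of 30 rose and 10 fell in aPIK3CD mice, and 1 of 30 rose and 9 fell in WT mice. Among all genes 22.2% rose and 21.4% fell in the aPIK3CD dark zone, and 19.8% rose and 21.6% fell in the WT dark zone. The light zone shares of all genes were 21.8% and 20.8% in aPIK3CD mice and 19.8% and 20.2% in WT mice. The median log2 fold change of the list in the dark zone was -0.26 in aPIK3CD and -0.38 in WT mice, against -0.01 and -0.06 for all genes tested in those genotypes. The share of the list that passed was near that of all genes.

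Cytip, Rassf5 and Rasgrp2 were among the list genes with the smallest p in the germinal centre. Cytip, which restrains the LFA-1 regulator cytohesin-1, averaged 98.2 ± 8.71 CPM in aPIK3CD dark zone cells, against 499 ± 52.2 CPM in aPIK3CD naive B cells (SD, n = 4 each). Its log2 fold change there was -2.33 (SE 0.12, edgeR adjusted p = 4.13e-08), and in WT mice it was -2.43 (SE 0.17, edgeR adjusted p = 2.84e-08). Rassf5, the Rap1 effector also called RAPL that binds the Itgal tail, fell in the aPIK3CD dark zone (log2 ratio -1.87, SE 0.25, edgeR adjusted p = 8.86e-05) and in the WT dark zone (log2 ratio -2.11, SE 0.20, edgeR adjusted p = 5.3e-07). Rasgrp2 fell in the light zone in aPIK3CD mice (log2 ratio -2.15, SE 0.20, edgeR adjusted p = 5.26e-06) and in WT mice (log2 ratio -1.46, SE 0.21, edgeR adjusted p = 0.000117).

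In plasma cells against naive B cells the list moved both ways: 8 of 30 rose and 12 fell in aPIK3CD mice, and 7 of 29 rose and 12 fell in WT mice. Among all genes 26.5% rose and 26.2% fell in aPIK3CD mice, and 25.4% rose and 24.2% fell in WT mice. Slc3a2, the CD98 heavy chain, which binds integrin beta tails and also carries amino acid transporters, averaged 2850 ± 242 CPM in aPIK3CD plasma cells, against 213 ± 33.8 CPM in aPIK3CD naive B cells (SD, n = 4 each). Its log2 fold change was 3.76 in aPIK3CD mice (SE 0.11, edgeR adjusted p = 2.18e-10) and 3.38 in WT mice (SE 0.15, edgeR adjusted p = 4.52e-10). Rap1a, encoding a Rap1 GTPase, rose in aPIK3CD mice (log2 ratio 2.16, SE 0.13, edgeR adjusted p = 5.58e-08) and in WT mice (log2 ratio 2.12, SE 0.17, edgeR adjusted p = 1.23e-07). Sipa1, which turns Rap1 off, fell in aPIK3CD mice (log2 ratio -2.66, SE 0.21, edgeR adjusted p = 6.8e-07) and in WT mice (log2 ratio -2.50, SE 0.31, edgeR adjusted p = 1.07e-05).

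Of 14 integrin ligand genes, only Icam1, Icam2 and Vcam1 were high enough to be tested. Icam2, a ligand of LFA-1, fell in the light zone against naive B cells in aPIK3CD mice (log2 ratio -1.32, SE 0.12, edgeR adjusted p = 5.06e-06) and in WT mice (log2 ratio -1.15, SE 0.16, edgeR adjusted p = 8.99e-05). It fell in the dark zone too, in aPIK3CD (log2 ratio -0.90, SE 0.15, edgeR adjusted p = 0.000425) and WT mice (log2 ratio -0.77, SE 0.19, edgeR adjusted p = 0.00361). Plasma cells held 235 ± 22.7 CPM in aPIK3CD and 225 ± 55.2 CPM in WT mice (SD, n = 4 each), close to the 237 ± 6.64 CPM of aPIK3CD and 234 ± 32.3 CPM of WT naive B cells (SD, n = 4 each). Icam1, the main LFA-1 ligand, fell in plasma cells against naive B cells in aPIK3CD mice (log2 ratio -0.64, SE 0.18, edgeR adjusted p = 0.0111) and in WT mice (log2 ratio -1.10, SE 0.31, edgeR adjusted p = 0.00856). In the aPIK3CD dark zone Icam1 averaged 110 ± 40.6 CPM (SD, n = 4), against 56.3 ± 23.9 CPM in the WT dark zone (SD, n = 3), with an edgeR adjusted p of 0.398. Icam1 fell in the WT dark zone against naive B cells (log2 ratio -1.06, SE 0.32, edgeR adjusted p = 0.0141). In aPIK3CD mice that log2 ratio was -0.14 (SE 0.23, edgeR adjusted p = 0.653). Vcam1 rose in the aPIK3CD dark zone over naive B cells (log2 ratio 2.36, SE 0.71, edgeR adjusted p = 0.0177), and was not tested there in WT mice. None of the ligands passed between the genotypes.

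The genes whose levels ran most like each integrin over the 31 deeper libraries were found by Pearson's r of log2(CPM + 1) among 9923 genes. The libraries share populations, so that r mostly describes the differences between the 4 populations, and no p is given. Itga4 ran most like Man1a (r = 0.943), Cmah (0.941) and Bcl2 (0.922). Itgb7 ran most like Dgka (r = 0.931), Dpp4 (0.917) and Agpat2 (0.902). For Itgal the closest were Mtdh (r = 0.966), H2-K1 (0.965) and Atf6 (0.964). For Itgb3 they were Rere (r = 0.892), Smc3 (0.892) and Scaf11 (0.889), and for Itgb1 Cacna1d (r = 0.904), Nek6 (0.821) and Psat1 (0.809). Itga6 ran most like Elmo1 (r = 0.831) and Itgb2 like Creb3 (r = 0.8), while the closest gene to Itgav reached only 0.734 (Gtf2a2). Among the integrins themselves, Itga4 and Itgb7 had r = 0.75 over these libraries, Itga4 and Itgal 0.74, and Itgb1 and Itgb7 -0.59.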

How the data were processed

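RNA-seq libraries of 32 sorted samples in 8 groups of 4 were used. As deposited, the values are raw gene counts, whole numbers in 53465 rows. Per the submitters' processing notes, STAR 2.4.2a, HTSeq and Picard were used. Their roles and the genome build are not given in the sources used here. Rows without a gene name (3433, with 0.173% of counts) were kept in the total counts and in the fits. They were left out only of the search for genes that ran most like an integrin. GENCODE M21 gene models gave transcript lengths and overlaps.

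Each comparison of 2 groups was fitted alone on the counts with edgeR 4.0.16 in R 4.3.3 (TMM, filterByExpr with minimum count 10 and minimum total 15, two-sided quasi-likelihood F test). The interaction of genotype and population used all 32 libraries. p-values were adjusted by Benjamini-Hochberg over all genes tested, and an adjusted p below 0.05 passed. The SE was derived from the fold change and the F statistic, as |log2 fold change| over the root of F. The fits were tested on simulated data. The integrins, gene lists and marker lists were chosen with earlier results of these data known, and named list genes are those with the smallest p, up to 4 per comparison. Intervals between libraries are SD. Alternatives were DESeq2 1.42.0 (its size factors, and its Wald or likelihood ratio test), no filter, leaving out immunoglobulin and T cell receptor genes, a single fit, the replicate number as a block, grouping by the genotype field, and leaving out each library. Items withheld from the text are not reported here.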

Additional observations from a re-analysis of the deposited data

Results flagged for a closer look

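In 5 of 59 pairs of integrin and group with enough counts, the highest or lowest library stood apart from the other 3 by Dixon's criterion. Chance flags about 1 in 20 such groups. Itgb7 was at 305 CPM in naive WT replicate 2, where the other 3 libraries had 172 to 192 CPM. Itga4 was at 353 CPM in plasma cell WT replicate 2, beside 269 to 279 CPM. Itgal was at 142 CPM in naive aPIK3CD replicate 3, beside 182 to 187 CPM. Itga6 was at 3.39 CPM, from 7 counts, in naive WT replicate 1, beside 26.7 to 28.9 CPM, and at 32.7 CPM in light zone aPIK3CD replicate 2, beside 13.7 to 16.6 CPM. The WT dark zone was left out, having 3 libraries beside the shallow one.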

How the results depend on the processing

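Of 47 integrin calls in the 16 comparisons of 2 groups, 41 were kept under every alternative run and 6 were lost in at least 1. No integrin value changed sign while called, and 18 values gained a call in at least 1 alternative. The 6 calls were Itgb3 in the light zone against the dark zone of WT mice and against naive B cells of both genotypes, Itga4 in WT plasma cells against naive B cells, Itgb2 in WT plasma cells against the light zone, and Itga6 in aPIK3CD plasma cells against the light zone. The last was lost in 4 of 8 fits that left out 1 library and with grouping by the genotype field.

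In the light zone against the dark zone of WT mice, 1 integrin passed, and the count was 0 with the DESeq2 Wald test, 0 in the single fit and 2 with grouping by the genotype field. In the WT dark zone against naive B cells, 3 passed, and the count was 5 with DESeq2 size factors and 6 with the genotype field. The size factors moved the median log2 fold change of all genes there from -0.065 to -0.231. In WT plasma cells against naive B cells, 3 passed, and 5 with the genotype field. The cause was not tested. Leaving out 1 library gave 0 to 1 integrins in the WT light zone against the dark zone, 3 to 4 in the WT dark zone and 3 to 4 in the WT light zone against naive B cells, and 3 to 5 in WT plasma cells against naive B cells. It gave 6 to 6 in WT plasma cells against the dark zone and 3 to 5 against the light zone. In aPIK3CD mice it gave 1 to 1 between the zones, 4 to 5 in the dark zone, 3 to 4 in the light zone and 5 to 6 in plasma cells against naive B cells, 6 to 8 in plasma cells against the dark zone and 5 to 6 against the light zone. All genotype comparisons and the interaction stayed at 0.

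The labels do not say whether libraries with the same replicate number share a mouse. The deposited column names give the 4 populations of a replicate the same number, without saying that it stands for a mouse. Correlations of same-numbered deviations ran from -0.0364 to 0.0716 between genotypes and from -0.038 to 0.169 between populations. Of the 4 numbers in a comparison, 1 to 2 correlated best with themselves between genotypes and 1 to 4 between populations. All 4 did so in 2 comparisons, light zone against dark zone and dark zone against naive B cells of aPIK3CD mice. This is a hint of pairing between populations. Whether same-numbered libraries are paired was not settled, and the main fits treated them as unpaired. With the replicate block, Itgav gained a call in the aPIK3CD dark zone against naive B cells (log2 fold change 0.79, edgeR adjusted p = 0.0492), and no other integrin call changed. Itga5 and Itgam passed the filter on low counts in none of the comparisons, and Itga6 and Itgb3 failed it only in comparisons that include plasma cells, whose libraries hold 473149 to 788999 counts.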
